A study of Homo sapiens with 6 samples.

Results

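The BCL2 family decides whether a cell keeps its mitochondria sealed, and 10 of its genes were examined here on the arrays of a breast cancer line. They are BCL2A1, BCL2, BCL2L1 and MCL1, whose proteins protect cells, BAX and BAK1, whose proteins open the outer mitochondrial membrane, and BCL2L11, BID, BBC3 and PMAIP1, which encode BH3-only proteins. Every probe set annotated to these genes was taken, which gave 31 of the 54675 probe sets of the table. BCL2A1 was chosen by its difference between the groups of arrays described here, so its values are a description with no test. The other 9 genes were added as its relatives.

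The samples came from 1833, a bone-seeking subline of the human breast cancer line MDA-MB-231. The 3 arrays labelled S153E-RKIP hold RNA of cells transduced with a lentiviral vector for S153E-RKIP, a mutant of the Raf-1 inhibitor RKIP that the series calls more potent, and kept under puromycin. The 3 control arrays hold RNA of cells whose transduction is labelled control and which the series calls vector control. All cells grew in serum-containing medium, and the series asks which genes RKIP regulates in them. The labels call the replicates biological and do not say how they were made, so the spread behind each p-value may be technical.

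A caution on the labels applies to every result. The source name of the S153E-RKIP samples mentions an shRNA against HMGA2, unlike their titles and characteristics. PEBP1, which encodes RKIP, had levels of 11.74, 11.64 and 11.61 on the S153E-RKIP arrays, against 11.77, 11.73 and 11.77 on the control arrays (difference -0.093, SE 0.0581, limma adjusted p = 0.473). HMGA2 differed by -0.023 (SE 0.0579, limma adjusted p = 0.882). Each value is from the brightest probe set with only that gene's symbol, and any other probe sets of PEBP1 and HMGA2 were not examined. On these probe sets neither gene told the groups apart, and no source used here says whether the PEBP1 probes match the lentiviral insert. All directions below rest on the group labels. The second principal component of all genes (21.6% of the variance) set S153E-RKIP replicate 1 apart from the other 2 arrays of its group, and results are given without it where that matters.

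Anti-apoptotic members of the family hold BH3-only proteins in a groove on their surface and restrain BAX and BAK1. When BH3-only proteins are in excess, BAX and BAK1 form pores, cytochrome c leaves the mitochondria and caspases are activated. BCL2A1, also called BFL1, is best known from blood cells, where NF-kB switches it on. The ERK pathway, which RKIP restrains, marks the BCL2L11 protein BIM for degradation, a step that transcript arrays do not see. Levels below are log2 RMA signals of a probe set, so a difference of 1 is a doubling. Probes differ in how strongly they bind, so brightest, dimmest and a percentile rank the signal of probe sets and do not compare the abundance of transcripts.

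The promoter windows of the 2 members with the largest differences, BCL2A1 and BID, are shown because both genes were higher on the S153E-RKIP arrays. Each is the 250 bases before a transcript start in RefSeq (GRCh38.p14), read 5′ to 3′ on the minus strand. The BCL2A1 window is chr15:79971197-79971446. RefSeq gives BID 5 starts. The window shown, chr22:17773984-17774233, was taken because it is one of the 2 that hold the hexamer CACGTG, which the other 3 do not. Capitals mark TATAAA in the first and CACGTG in the second.
BCL2A1: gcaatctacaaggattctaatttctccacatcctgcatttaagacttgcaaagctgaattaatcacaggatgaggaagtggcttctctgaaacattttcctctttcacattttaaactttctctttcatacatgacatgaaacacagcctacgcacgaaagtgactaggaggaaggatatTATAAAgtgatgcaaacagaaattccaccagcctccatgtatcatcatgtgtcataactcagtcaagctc
BID: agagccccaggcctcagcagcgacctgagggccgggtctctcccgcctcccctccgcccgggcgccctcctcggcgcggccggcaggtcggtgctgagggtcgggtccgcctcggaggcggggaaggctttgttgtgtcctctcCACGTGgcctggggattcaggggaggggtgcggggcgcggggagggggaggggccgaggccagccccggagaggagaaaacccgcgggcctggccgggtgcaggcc

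G and C made up 38.8% of the BCL2A1 window and 76.4% of this BID window, where the median over 35116 RefSeq windows of the same length was 58.0%. Over the 5 BID windows the share ran from 47.6%, in the window farthest upstream, to 78.0%, so its place against that median depends on the start. TATAAA, a hexamer found in TATA boxes, lay 70 to 65 bases before the BCL2A1 start. On either strand 10.7% of all windows held it, 1 window of BCL2L1 among them. Whether the hexamer works as a TATA box at that distance was not tested. CACGTG, an E-box, lay 106 to 101 bases before this BID start, and 6.34% of all windows held it, among them those of BAX, with 4 matches, and BBC3, with 1. The kB consensus, the site of NF-kB, matched none of the 14 windows of the 9 members listed there, against 9.96% of all windows. TGANTCA, a site of AP-1, matched the BBC3 window alone among members, with no overlap with CACGTG, and 6.57% of all windows. Both strands were searched for these 4 motifs, which were picked with matches in view, and a missing match says only that the letters are not in the window.

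On the arrays labelled S153E-RKIP, BCL2A1 was far higher than on the control arrays, BID was moderately higher on all of its probe sets, and BCL2L1 was lower on 3 of its 4 probe sets without passing the test. MCL1, BCL2, BAX, BAK1, BBC3, PMAIP1 and BCL2L11 gave small or mixed differences that were not called. Beside BCL2A1, 3 of 30 probe sets were called at a limma adjusted p under 0.05 over all 54613 probe sets tested, and all 3 belong to BID. Of all probe sets tested, 1.05% were called, 0.366% higher and 0.685% lower. Since the family was assembled around a gene known from this contrast, nothing is read from that count. No filter on low values was applied, and all 31 probe sets were tested.

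BCL2A1 lies on chromosome 15 at 79960892 to 79971196 (GRCh38.p14) and has 1 probe set, 205681_at. It had levels of 9.11, 9.10 and 8.90 on the S153E-RKIP arrays, against 5.55, 5.73 and 5.51 on the control arrays. The lowest S153E-RKIP array thus stood more than 3 log2 units above the highest control array. The means were 9.04 ± 0.12 in S153E-RKIP cells and 5.60 ± 0.118 in control cells (SD, n = 3 each). Their difference was 3.44 (SE 0.0866), a 10.9-fold change. Without S153E-RKIP replicate 1 the difference was 3.40, and leaving out any 1 array gave values between 3.40 and 3.51. The control level was close to 5.62, the median level of all probe sets. Signal over background was not measured, and the fold is a lower bound if the control signal is background.

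**Figure D1:**
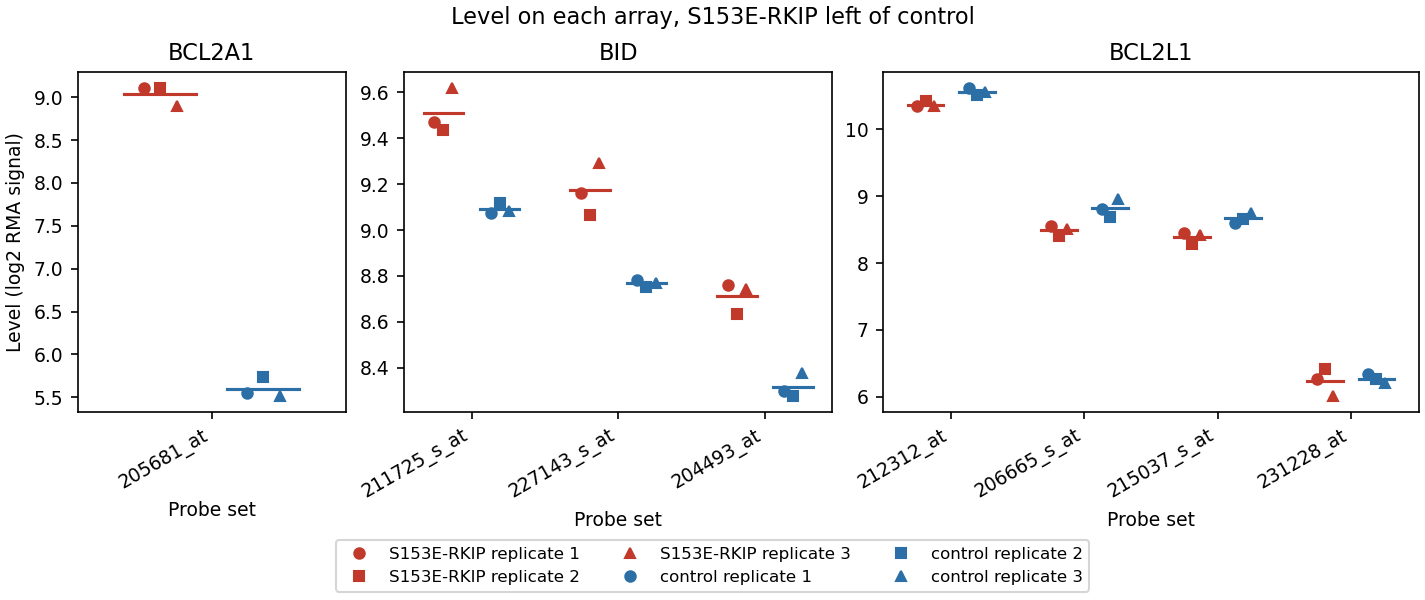
Level (log2 RMA signal) of each probe set of BCL2A1, BID and BCL2L1 on each array, with S153E-RKIP points left of control points and a bar at each group mean; each panel has its own axis. BCL2A1 sits near 9.04 against 5.60, the 3 BID probe sets are higher by 0.40 to 0.42, and 3 of the 4 BCL2L1 probe sets are lower without overlap.

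Among the other anti-apoptotic genes, BCL2L1 encodes BCL-xL and, by splicing, the shorter pro-apoptotic BCL-xS, from chromosome 20 at 31664452 to 31723963. Its brightest probe set, 212312_at, had levels of 10.34, 10.42 and 10.35 on the S153E-RKIP arrays, against 10.62, 10.51 and 10.55 on the control arrays. Probe set 206665_s_at had 8.55, 8.41 and 8.52 on the S153E-RKIP arrays, against 8.82, 8.69 and 8.95 on the control arrays. For 215037_s_at the levels were 8.45, 8.29 and 8.42 on the S153E-RKIP arrays and 8.61, 8.65 and 8.74 on the control arrays. On these 3 probe sets every S153E-RKIP array lay below every control array, as for 9.06% of all probe sets. The differences were -0.19 (SE 0.0623), -0.33 (SE 0.0808) and -0.28 (SE 0.0711), with limma adjusted p of 0.255, 0.136 and 0.147, so none was called. The dimmest probe set, 231228_at, differed by -0.043 (95% confidence interval -0.28 to 0.19) and its groups overlapped. With the mean of the 4 probe sets as 1 value per gene the difference was -0.21 (SE 0.0509, limma adjusted p = 0.0906).

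MCL1 encodes a short-lived protein that many tumour cells depend on, and it has 6 probe sets and lies on chromosome 1 at 150574558 to 150579610. The 2 brightest, 200797_s_at and 200798_x_at, differed by -0.054 (95% confidence interval -0.19 to 0.087) and 0.038 (95% confidence interval -0.10 to 0.18). On 5 of the 6 probe sets the groups overlapped and the difference lay between -0.054 and 0.042. The dimmest, 227175_at, stood apart from these. It had 4.85, 4.91 and 5.21 on the S153E-RKIP arrays, against 4.60, 4.69 and 4.73 on the control arrays. That difference of 0.31 (SE 0.0974, limma adjusted p = 0.229) was not called, and its mean level of 4.83 lay below the median of all probe sets.

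BCL2, the founding member of the family, has 4 probe sets, and its groups overlapped on each. The brightest, 203685_at, had 6.84, 6.80 and 7.01 on the S153E-RKIP arrays, against 7.21, 7.13 and 6.93 on the control arrays (difference -0.21, SE 0.0912, limma adjusted p = 0.380). The other 3 differed by 0.046, 0.0075 and -0.061. No change of BCL2 was therefore called in either direction.

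BAX and BAK1 encode the pore-forming effectors. For BAX, 211833_s_at had 8.43, 8.01 and 8.31 on the S153E-RKIP arrays, against 8.35, 8.14 and 8.48 on the control arrays. Replicate 2 was the lowest array in both groups on both probe sets of BAX. The differences were -0.073 (95% confidence interval -0.35 to 0.20) for that probe set and -0.027 (95% confidence interval -0.32 to 0.27) for 208478_s_at. BAK1 differed by -0.050 (95% confidence interval -0.22 to 0.12) on its single probe set. Neither effector was called, and these intervals reach no lower than -0.35 and no higher than 0.27.

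BID encodes a BH3-only protein that caspase-8 cleaves, which carries a death receptor signal to the mitochondria. The gene lies on chromosome 22 at 17734138 to 17774665 (GRCh38.p14). Probe set 211725_s_at had levels of 9.47, 9.44 and 9.62 on the S153E-RKIP arrays, against 9.07, 9.12 and 9.09 on the control arrays. With 227143_s_at the levels were 9.16, 9.07 and 9.29 on the S153E-RKIP arrays and 8.78, 8.75 and 8.77 on the control arrays. For 204493_at they were 8.76, 8.63 and 8.74 on the S153E-RKIP arrays and 8.30, 8.27 and 8.38 on the control arrays. All 3 probe sets separated the groups with no overlap, as 8.09% of all probe sets did in this direction. The differences were 0.42 (SE 0.0684), 0.41 (SE 0.0715) and 0.40 (SE 0.0655), or 1.34-fold, 1.32-fold and 1.32-fold, with limma adjusted p of 0.0279, 0.0391 and 0.0294. They lay within 0.022 of each other. The differences spanned 0.045 in BAX and 0.089 in PMAIP1, with 2 probe sets each. In genes with 4 to 7 probe sets they spanned 0.25 (BCL2), 0.29 (BCL2L1), 0.37 (MCL1) and 0.26 (BCL2L11). Probe sets of a gene read the same RNA, so their likeness does not replicate the condition. Leaving out any 1 of the 6 arrays ended all 3 BID calls (adjusted p of 0.0611 to 0.180), while the difference stayed between 0.35 and 0.46. With equal array medians 227143_s_at was no longer called (0.37, adjusted p = 0.0617).

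**Figure D2:**
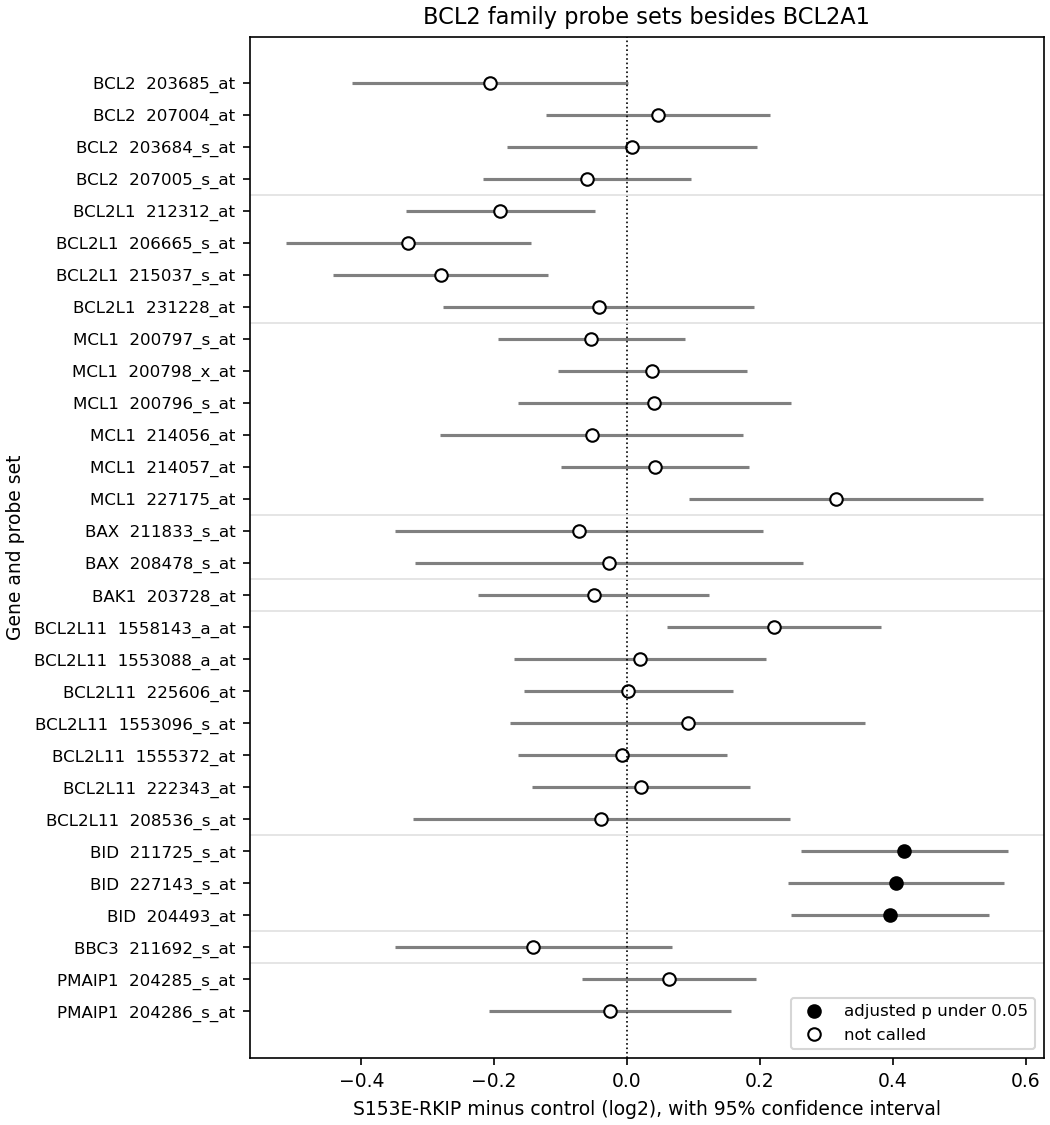
Difference of each of the 30 probe sets besides BCL2A1, S153E-RKIP minus control in log2 units, with 95% confidence intervals and filled points where the adjusted p is under 0.05. The 3 BID probe sets lie together near 0.41, BCL2L1 lies below 0, and 20 of the 30 differ by less than 0.1 in either direction.

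BCL2L11 encodes BIM, which can bind every anti-apoptotic member, and it has 7 probe sets, more than any other member. The brightest, 1558143_a_at, had 8.37, 8.21 and 8.30 on the S153E-RKIP arrays, against 8.08, 8.14 and 7.99 on the control arrays, without overlap. Its difference was 0.22 (SE 0.0706, limma adjusted p = 0.244) and was not called. The other 6 differed by -0.039 to 0.091 and their groups overlapped. With the mean of all 7 the difference was 0.044 (SE 0.0527, limma adjusted p = 0.710).

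PMAIP1 encodes NOXA, which binds MCL1, and BBC3 encodes PUMA; both are known p53 targets. PMAIP1 had 11.76, 11.76 and 11.80 on the S153E-RKIP arrays of 204285_s_at, against 11.72, 11.73 and 11.67 on the control arrays. These groups did not overlap, yet the difference was 0.063 (95% confidence interval -0.068 to 0.19), and that of 204286_s_at was -0.026 (95% confidence interval -0.21 to 0.16). The probe set of BBC3, 211692_s_at, is annotated to 2 microRNA genes as well, so its signal cannot be assigned to BBC3 alone. It had 6.81, 6.52 and 6.82 on the S153E-RKIP arrays, against 6.78, 6.90 and 6.90 on the control arrays (difference -0.14, SE 0.0917, limma adjusted p = 0.537).

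Across the 30 probe sets besides BCL2A1 the median difference was -0.0025, with 15 above 0 and 15 below, and the median over all probe sets was 0.010. Groups did not overlap on 6 probe sets that were higher (3 of BID and 1 each of MCL1, BCL2L11 and PMAIP1) and on 3 that were lower (all of BCL2L1). Of all probe sets tested, 17.1% showed no overlap. Of all 31, 4 had a mean level at or below the median of the table (1 of BCL2, 2 of BCL2L11 and 1 of MCL1).

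The rest of the apoptosis pathway was described with 1 probe set per gene, the brightest with only that gene's symbol, in a limma fit over 19775 genes. Of 74 measured genes on 10 lists, 7 were called higher and none lower, where 1.9% of all genes were called, 0.688% higher and 1.21% lower. The median difference of the 74 was -0.035, against 0.010 over all genes. Of the 7, 5 stood on the list of survival genes that NF-kB induces. That list was drawn up with the rise of NF-kB targets on these arrays already known, so its count is a description. With the genes of that list left out, 2 of 66 measured genes were called, both higher, with a median difference of -0.048.

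Among 8 measured NF-kB induced survival genes, 5 were called higher, none lower and 3 were not called, with a median difference of 0.41. Those 3 were BIRC2 (0.16), XIAP (-0.029) and GADD45B (-0.33, SE 0.118, limma adjusted p = 0.232). Groups did not overlap for 6 of the 8, all higher, and for 20.1% of all genes, 9.31% higher and 10.8% lower. TNFAIP3, which encodes the NF-kB inhibitor A20, had 8.46, 8.54 and 8.50 on the S153E-RKIP arrays, against 7.58, 7.67 and 7.27 on the control arrays. It rose 2.00-fold (difference 1.00, SE 0.0999, limma adjusted p = 0.00202), and its other probe set rose by 1.12. SOD2, the mitochondrial superoxide dismutase, rose by 0.42 (SE 0.0633), TRAF1, an adaptor of TNF receptors, by 0.40 (SE 0.0688), and IER3, an immediate early gene, by 0.43 (SE 0.0822). Their limma adjusted p were 0.0154, 0.0283 and 0.0398, and in the fit over all probe sets IER3 had 0.0583. The call of SOD2 was lost without any of 4 arrays, and those of TRAF1 and IER3 without any of 5 (adjusted p of TRAF1 up to 0.136 and of IER3 up to 0.178, both without control replicate 1). Averaging the 2 TRAF1 probe sets gave a difference of 0.21 (adjusted p = 0.114).

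CFLAR encodes FLIP, which blocks caspase-8 at death receptors, and is on this list and on that of death receptors. Its brightest probe set, 209939_x_at, had 9.63, 9.45 and 9.60 on the S153E-RKIP arrays, against 8.94, 9.02 and 8.96 on the control arrays. That is a rise of 0.59 (SE 0.0653, limma adjusted p = 0.00363). Of its 14 probe sets 2 were called, both _x_at probe sets, whose probes may cross-hybridise, and the 14 ranged from -0.13 to 0.59. With _x_at probe sets left out the brightest one left differed by 0.29 (adjusted p = 0.553), and the mean of all 14 differed by 0.14 (adjusted p = 0.253). Among the 11 measured death receptor genes no other was called, and the list median was 0.14. At an unadjusted p under 0.05 there were 6, CFLAR and, in the lower direction, TRADD among them, where 15.7% of all genes had one.

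Of 7 other BH3-only and BH3-like genes, BIK rose and 6 were not called. BIK, whose protein sits at the endoplasmic reticulum, had 6.55, 6.74 and 6.43 on the S153E-RKIP arrays, against 5.91, 5.95 and 6.05 on the control arrays, a 1.52-fold rise (difference 0.61, SE 0.0850, limma adjusted p = 0.0105). Without control replicate 1 or 2 its call was lost (adjusted p of 0.0890 at most). Of 12 measured p53 target genes, 5 lay above 0 and 7 below, with a median difference of -0.055, and none was called lower. CDKN1A, encoding the cell cycle inhibitor p21, rose by 0.41 (SE 0.0676, limma adjusted p = 0.0223), and no other was called. Its call was lost without any of 5 arrays, up to an adjusted p of 0.129 without control replicate 1.

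No gene was called on the 6 remaining lists, given here by the gene with the smallest p of each. BCL2L10, of the 2 other anti-apoptotic relatives, differed by 0.12 (95% confidence interval -0.031 to 0.27), and BCL2L15, of 5 divergent members, by 0.14 (95% confidence interval -0.037 to 0.31). CYCS, encoding cytochrome c, differed by 0.087 (95% confidence interval -0.031 to 0.21) among 10 genes of cytochrome c release and the apoptosome. CASP6, an executioner caspase, differed by -0.26 (SE 0.0918, limma adjusted p = 0.231) among 9 caspases. BIRC2, encoding the inhibitor of apoptosis cIAP1, differed by 0.16 (SE 0.0564, limma adjusted p = 0.220) among 6 such inhibitors. BAG4 differed by -0.12 (SE 0.0573, limma adjusted p = 0.349) among 9 regulators of the stability and binding of BCL2 proteins, all 9 of which lay below 0. At an unadjusted p under 0.05 these 6 lists held 0, 0, 0, 3, 2 and 0 genes in the order given, where 15.7% of all genes had one.

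**Figure D3:**
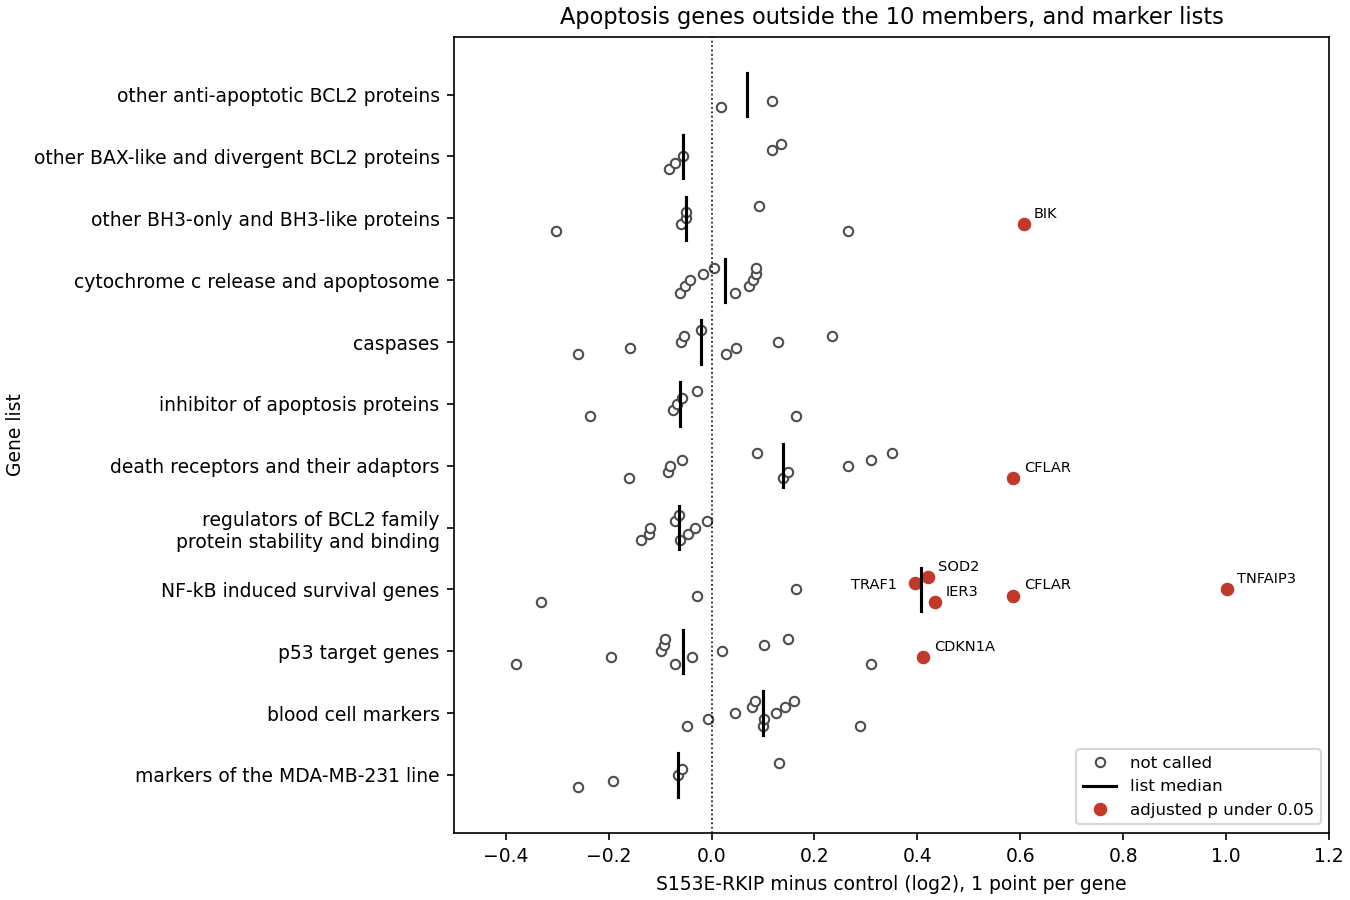
Difference of each measured gene, S153E-RKIP minus control in log2 units, by list, with a bar at the list median and filled points where the adjusted p over all genes is under 0.05. The 7 genes called are all higher and 5 of them are on the NF-kB list (CFLAR is on 2 lists), while the medians of the other apoptosis lists lie between -0.063 and 0.14.

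Because BCL2A1 is known from blood cells, a list of blood cell markers was read beside it. No marker of the 11 measured was called. At an unadjusted p under 0.05 there was 1, CD3E (difference 0.29, SE 0.0790, limma adjusted p = 0.139), where 15.7% of all genes had one. Of the 11 markers, 9 lay above 0 and 2 below, and the median difference of the list was 0.10. Their mean level ran from 5.35 to 5.43 over the S153E-RKIP arrays and from 5.28 to 5.34 over the control arrays, so the groups did not overlap. The median of all probe sets was likewise higher on every S153E-RKIP array (5.63 to 5.67) than on any control array (5.60 to 5.62). Taken singly, 2 of the 11 markers showed no overlap, both higher, against 20.1% of all genes, 9.31% higher. PTPRC, the pan-leukocyte marker CD45, had 3.96, 4.04 and 3.93 on the S153E-RKIP arrays, against 3.90, 3.89 and 3.84 on the control arrays, and 8.53% of genes had a level at or below its own. Of 5 markers of MDA-MB-231 (VIM, CD44, EGFR, KRT8 and KRT18), the level lay at the 85.7th percentile of genes or higher for all. None was called, with 3 at an unadjusted p under 0.05, EGFR (-0.26), KRT8 (-0.19) and, in the higher direction, CD44 (0.13). Groups did not overlap for 3 of the 5 in the lower direction and 1 in the higher, against 20.1% of all genes. The mean level of the 5 ran from 12.13 to 12.20 over the S153E-RKIP arrays and from 12.23 to 12.27 over the control arrays. It was lower in the S153E-RKIP group without overlap. The part of other cells in the BCL2A1 difference was not tested.

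Genes around BCL2A1 on chromosome 15 were compared by position. RefSeq places 21 genes with a start within 0.5 Mb, of which 7 were measured. None was called, where 1.9% of all genes were, and their differences ran from -0.060 for ARNT2 and ZFAND6 to 0.25 for ST20. At an unadjusted p under 0.05 there was 1, ST20, where 15.7% of all genes had one. Groups did not overlap for ST20 (higher) and ZFAND6 (lower), and for 20.1% of all genes. ST20, 62.05 kb away, had 8.07, 7.88 and 7.81 on the S153E-RKIP arrays, against 7.75, 7.66 and 7.60 on the control arrays (SE 0.0798, limma adjusted p = 0.195), from an _x_at probe set, whose probes may cross-hybridise. The others were ST20-AS1 (-0.024), FAH (0.17), CTXND1 (0.049) and LINC00927 (0.059).

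The genes nearest to BCL2A1 in profile were found by the root mean square difference over the 6 arrays, each gene centred on its own mean. In order they were IL1A (0.271), VNN1 (0.344), CXCL3 (0.354), COXFA4L3 (0.438) and CXCL1 (0.438), where a gene with the same value on all arrays has 1.72. IL1A encodes interleukin-1 alpha, CXCL3 and CXCL1 are chemokine genes, and VNN1 encodes a pantetheinase. Their differences ran from 2.59 for CXCL1 to 2.99 for IL1A, all smaller than that of BCL2A1. On S153E-RKIP replicate 1 VNN1 had 7.83 and COXFA4L3 10.02, below their levels of 8.31 and 8.34, and of 10.62 and 10.44, on replicates 2 and 3. IL1A, the nearest in profile, was lowest on replicate 1 as well (8.20, against 8.45 and 8.50 on replicates 2 and 3). BCL2A1, CXCL3 and CXCL1 by contrast had their highest level there. The likeness rests on the same contrast that picked BCL2A1 and is a description.

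**Figure D4:**
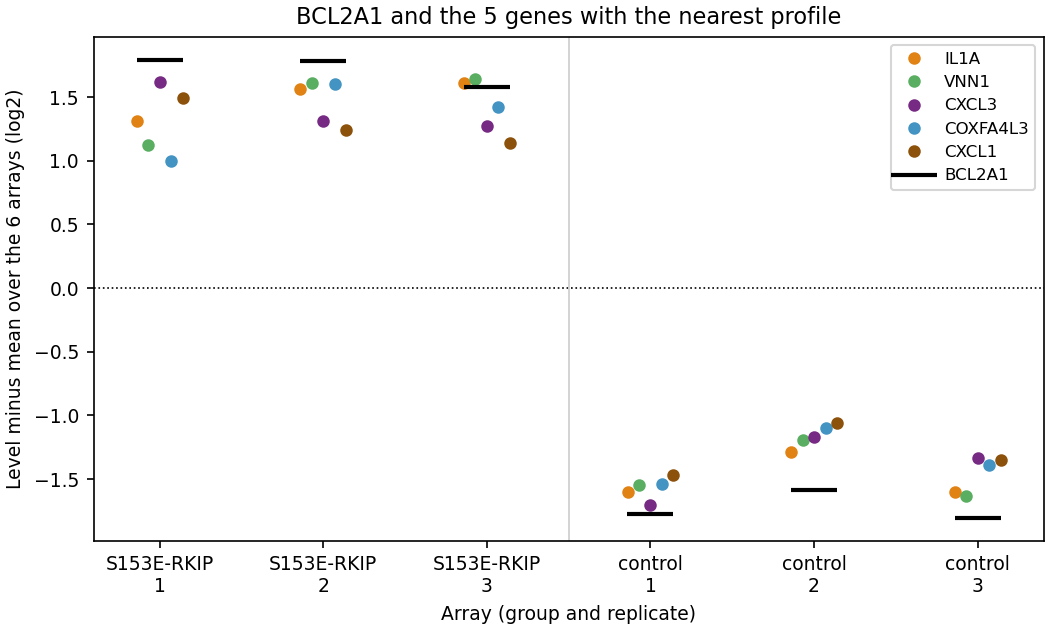
Level minus the gene's own mean over the 6 arrays (log2), for BCL2A1 (bars) and the 5 genes with the nearest profile (points), by array. All 6 genes lie above 0 on the 3 S153E-RKIP arrays and below 0 on the 3 control arrays, and VNN1 and COXFA4L3 lie lowest on S153E-RKIP replicate 1.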

How the data were processed

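RNA of the 6 samples was hybridised to Affymetrix HG-U133 Plus 2.0 arrays, 1 array a sample. The deposited values are log2 expression values made with RMA by the authors, per the submitters' processing notes, whose version no source used here gives. They were used as deposited. RMA normalises arrays by quantiles, which would hide a change shared by most genes. The 62 control probe sets were left out, and 54613 were tested. Of these 41091 have 1 symbol in the platform annotation, 1801 several and 11721 none. Genes named on the lists with no such probe set (7 of 81) were not analysed here.

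Each probe set was fitted in limma 3.58.1 under R 4.3.3 (lmFit, eBayes without trend, two-sided), S153E-RKIP minus control, with Benjamini-Hochberg adjustment over all probe sets. A second fit used the brightest probe set of each of 19775 genes, for the pathway lists. The threshold for a call was an adjusted p of 0.05. The moderated variance gave the standard errors and 95% confidence intervals, and the number of arrays limits the precision (median standard error 0.0772). The fit over probe sets was first tested on simulated data with known changes. Members and lists were chosen with earlier results of these data known. Named genes were the members, the called genes of each list or else the gene with the smallest p, the 5 nearest profiles, all neighbours within 0.5 Mb, PEBP1 and HMGA2. Others are named as examples. Array medians were 5.65, 5.67 and 5.63 for S153E-RKIP and 5.60, 5.62 and 5.61 for control, so every S153E-RKIP array lay above every control array. A general shift of level therefore goes with the group. With equal medians 760 probe sets were called in place of 574. Among the arrays, 0 pairs were identical. Figures were drawn with matplotlib 3.10.9.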

Additional observations from a re-analysis of the deposited data

How the results depend on the processing

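Quantile normalisation again, equal medians, array weights and leaving out 1 array gave BCL2A1 differences of 3.40 to 3.51, a move of less than 1 SD. The other alternatives cannot move this difference, since they leave the means of its single probe set as they are. The count of member probe sets called, 4 as reported, was 1 in each fit without 1 array, 1 at an adjusted p under 0.01, and 2 with either the brightest or the mean probe set of a gene, which count genes. The labels do not say whether replicate numbers pair the arrays. Deviations of same-numbered arrays correlated at 0.13, 0.26 and -0.044 over genes, and those of differently numbered arrays at -0.27 to 0.13. These few values do not settle whether the arrays are paired. With the replicate block 2 member probe sets were called in place of 4, and 573 of all probe sets in place of 574. The block ended the calls of BID 211725_s_at (adjusted p = 0.0533) and 227143_s_at (adjusted p = 0.0572), while 204493_at had 0.0478, and it ended that of CDKN1A (adjusted p = 0.0538). Of all probe sets tested, 939 were called with a trended robust variance, 245 at an adjusted p under 0.01, and 209 to 450 without 1 array. With the brightest probe set of each gene the count is of genes, 376 of 19775 (1.9%), against 1.05% of probe sets. Of the pathway genes 2 were called at an adjusted p under 0.01, and 2 to 6, in place of 7, without 1 array.

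Signs changed only on probe sets that were never called. After quantile normalisation again the difference was -0.023 for BCL2 203684_s_at, 0.023 for BAX 208478_s_at, 0.0017 for BAK1, -0.012 for BCL2L11 222343_at and 0.0097 for PMAIP1 204286_s_at. With equal medians it was -0.029 for BCL2 203684_s_at, and -0.017, -0.035 and -0.016 for BCL2L11 1553088_a_at, 225606_at and 222343_at. With array weights it was -0.010 for BCL2 203684_s_at. Without 1 array the range crossed 0 for BCL2 203684_s_at (-0.076 to 0.076) and 207004_at (-0.0088 to 0.085), BAX 208478_s_at (-0.13 to 0.096) and 211833_s_at (-0.16 to 0.048), BCL2L1 231228_at (-0.14 to 0.069), MCL1 200796_s_at (-0.031 to 0.12) and 214056_at (-0.13 to 0.032), and PMAIP1 204286_s_at (-0.093 to 0.044). For BCL2L11 it was -0.047 to 0.079 for 1553088_a_at, -0.058 to 0.018 for 1555372_at, -0.17 to 0.10 for 208536_s_at, -0.022 to 0.069 for 222343_at and -0.043 to 0.047 for 225606_at. The cause was not tested. Signal over background was not measured, which limits what low levels can show.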
